A study of Mus musculus with 67 samples.

Results

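Pttg1, Pigc, Prmt3, Slc6a8, Wdfy2 and Obox2 are 6 genes whose probes stood near the top of the differences between diets in the mouse cerebral cortex, out of 4209 genes that a cDNA filter measured with probes of 1 gene symbol. They were chosen because mice on caloric restriction (CR) and mice fed ad libitum (AL) differed most consistently there at 1 age or over the ages. Each gene had 1 such probe, so 6 of 8448 probes are described and all 6 are shown. The diet differences below are therefore the values that chose the genes, and they are given as a description with no test. Comparisons of age and of sex did not enter the choice and were tested, though they share the spread within groups with the diet differences.

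The 6 genes belong to unrelated processes. Pttg1 encodes securin, which holds the protease separase inactive until the anaphase-promoting complex destroys it and sister chromatids part. Pigc encodes a subunit of the enzyme that starts glycosylphosphatidylinositol (GPI) anchors, the lipid tails by which many proteins are fixed to the cell surface. Wdfy2 encodes a protein of early endosomes whose FYVE domain binds the lipid phosphatidylinositol 3-phosphate. Slc6a8 encodes the transporter that brings creatine, the energy buffer of brain and muscle, into cells. Prmt3 encodes a cytosolic enzyme that methylates arginine residues, among others those of a ribosomal protein. Obox2 belongs to a family of homeobox genes known from oocytes. Caloric restriction is the intake of less food than an animal would eat freely, and it is known for lengthening life in rodents.

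The samples were whole cerebral cortex of C57BL/6 mice of both sexes, on 67 arrays that the labels assign to 1 mouse each. AL and CR mice were compared at 6 months (169 to 194 days), 16 months (472 to 499 days) and 24 months (673 to 743 days), and younger AL mice were measured at 17-21 and at 33-44 days. Adult groups of 1 age, diet and sex held 5 mice, other than the CR males of 6 months (n = 4) and of 24 months (n = 3). The youngest groups held 2 males and 3 females at 17-21 days and 3 males and 2 females at 33-44 days. CR mice received regular feed until 13 weeks of age, then 90% and 75% of it for 1 week each in fortified form, and 60% until they were killed. The 3 CR males of 24 months were all 673 days old, while the AL males of 24 months were 714 to 743 days old, so diet and a small difference of age cannot be told apart there. Neurons, glia and vessels were measured together, and fewer cells of a type and less RNA per cell cannot be told apart.

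Each value is a z-score: the log intensity of a spot minus the mean of its array, in units of the SD of that array. A score of 0 is the mean of an array, and a difference of 1 z unit is 1 SD of all its spots, not a fold change. The signal over background of a spot is not known from such scores, so precision can be read only from how many mice were measured and how far they spread. For a typical probe (the median of all) the 95% interval of CR minus AL reached 0.19 z units to either side at 6 months, 0.19 at 16 months, 0.20 at 24 months and 0.11 over the 3 ages.

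Some arrays stood apart in ways the groups do not explain. Arrays numbered 46 to 67 in the labels (22 arrays) differed from those numbered 1 to 45 (45 arrays), and this split accounted for 0.945 of the variance of the first principal component. The labels do not call these sets batches. An AL male and an AL female of 16 months (replicate 2 of each) were almost the same array, with r = 0.99975 and 4312 identical scores, while the next closest pair of arrays reached r = 0.98921. They were counted as 1 mouse in the means of both sexes below, so that AL at 16 months had n = 9. For AL male replicate 2 of 24 months, the title and the age field give 714 days, but the description repeats the entry of a male of 43 days. Neighbouring probes on the filter also shared deviations, with a mean autocorrelation across arrays of 0.35 between adjacent probes and -0.06 between probes 300 apart. It did not simply fade with distance. On a layout of blocks, rows and columns inferred from the probe order, it was 0.43 between adjoining rows of a column. Between the same places of successive blocks it was 0.42. Diet differences are therefore also given within each set of array numbers and after subtraction of the mean deviation of the surrounding probes. The subtraction uses close probes of the same block, so it need not remove what successive blocks share.

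**Figure D1:**
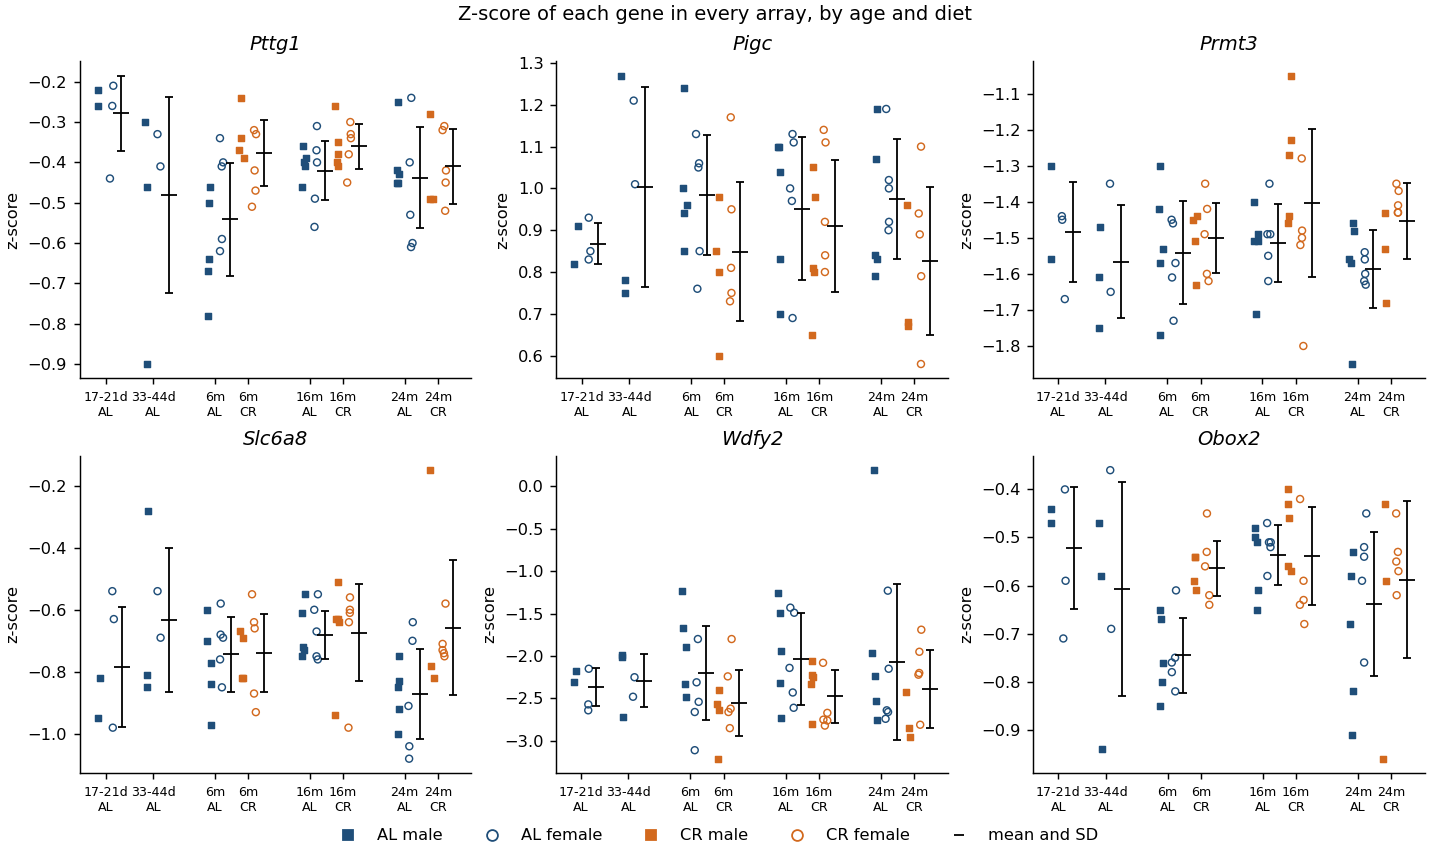
Z-score of each of the 6 genes (vertical axis, z units) in all 67 arrays by age (d, days; m, months) and diet (horizontal axis). Filled squares are males and open circles females, blue is AL and orange CR, and black bars are the mean and SD with the 2 near-identical AL arrays of 16 months counted once. CR and AL points overlap at every age for every gene, the least for Obox2 at 6 months, and 1 AL male of 24 months stands at 0.19 for Wdfy2.

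In RefSeq (GRCm38.p6) the 6 genes lie on 5 chromosomes. Pttg1 spans chr11:43420244-43427463, Pigc chr1:161969188-161973460, Prmt3 chr7:49778319-49861264, Slc6a8 chrX:73673133-73682502, Wdfy2 chr14:62837661-62961509 and Obox2 chr7:15388851-15398545. Obox2 is one of 6 numbered Obox genes of chromosome 7 in that annotation, which are related in sequence, and it was the only one of them with a named probe here. Whether their transcripts bind its probe was not tested. The 250 bases before the start of Pigc and of Obox2 are shown, a broadly used gene beside an oocyte gene, because these are the only members whose window ends exactly at the annotated gene start. Capitals mark the CCAAT box, spelled by its name, and the GC box, GGGCGG, searched on both strands.
Pigc, chr1:161968938-161969187, plus strand: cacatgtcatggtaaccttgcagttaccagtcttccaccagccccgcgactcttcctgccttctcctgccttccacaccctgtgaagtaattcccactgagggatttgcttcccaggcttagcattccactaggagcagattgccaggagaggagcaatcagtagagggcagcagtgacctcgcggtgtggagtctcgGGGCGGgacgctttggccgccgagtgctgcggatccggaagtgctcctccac
Obox2, chr7:15388601-15388850, plus strand: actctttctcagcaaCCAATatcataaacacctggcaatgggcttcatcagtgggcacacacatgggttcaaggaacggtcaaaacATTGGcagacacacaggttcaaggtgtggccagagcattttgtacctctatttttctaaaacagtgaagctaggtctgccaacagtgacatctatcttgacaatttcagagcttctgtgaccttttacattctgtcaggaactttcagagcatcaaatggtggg
The Pigc window held 11 CG dinucleotides and 1 GC box, and the Obox2 window held 1 CG and 2 CCAAT boxes. Among 32851 RefSeq promoter windows of the same length the median number of CG was 6, and 33.9% held CCAAT and 32.7% GGGCGG. The windows of Pttg1, Prmt3 and Wdfy2 held 20, 17 and 20 CG. The motifs TGTTTAC (a forkhead factor motif) and AGAACA (part of the glucocorticoid receptor motif) were in none of the 5 windows and in 3.17% and 16.1% of all windows. Slc6a8 had no entry.

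Across all probes, no diet difference passed the test, in which limma compared the group means with Benjamini-Hochberg adjustment at 0.05. The count was 0 of 8448 probes (0%) at 6, 16 and 24 months and over the 3 ages. An unadjusted p under 0.05 was reached by 39 probes (0.462%) at 6 months, 87 (1.03%) at 16 months, 88 (1.04%) at 24 months and 60 (0.71%) over the 3 ages. Each of these shares was smaller than such a threshold would admit if no probe differed. The study's own selection began with a mean score above 0, an unadjusted p under 0.05 and a z-ratio (the difference over the SD of all differences) of at least 1.5, and its further test by age, sex and diet was not run here. These steps admitted 29, 10 and 41 probes at 6, 16 and 24 months and 30 over the 3 ages. The mean scores of 5 of the 6 genes were below 0, which the first of them leaves out. The fitted differences given below weight the sexes equally and keep the near-identical arrays apart, so they depart from the difference of the means printed beside them by up to 0.07 z units.

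Pttg1 leaned higher under CR, chiefly at 6 months. At 6 months the AL mice scored from -0.78 to -0.34 with a median of -0.55, and the CR mice from -0.51 to -0.24 with a median of -0.37. All 9 CR mice were above the AL mean, but the 2 diets overlapped between -0.51 and -0.34. The difference was 0.17 z units (SE 0.06), at position 2 of 4875 named probes when ordered by p. The males carried most of it: AL males scored -0.67, -0.50, -0.78, -0.64 and -0.46 and CR males -0.37, -0.39, -0.24 and -0.34, with no overlap. How many of all probes separate so in groups of this size was not counted. After subtraction of the mean deviation of the surrounding probes these males overlapped, with CR male replicate 2 at -0.46 and AL male replicate 1 at -0.41. AL and CR females differed by 0.06 and overlapped. At 16 months the AL mean was -0.42 ± 0.07 (SD, n = 9) and the CR mean -0.36 ± 0.06 (n = 10), and at 24 months they were -0.44 ± 0.13 (n = 10) and -0.41 ± 0.09 (n = 8). The difference shrank from 0.17 at 6 months to 0.06 (SE 0.05) at 16 months and 0.03 (SE 0.06) at 24 months, and its change with age was not tested. At 24 months it turned to -0.01 without CR male replicate 2.

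Obox2 also leaned higher under CR at 6 months, and at that age it stood at position 1 of the named probes. AL mice of 6 months scored from -0.85 to -0.61 with a median of -0.76, and CR mice from -0.64 to -0.45 with a median of -0.56. All 9 CR mice were above the AL mean and all 10 AL mice below the CR mean, with an overlap from -0.64 to -0.61. The difference was 0.18 (SE 0.06), of the same size in males (0.18) and females (0.18). At 16 months both diets had the same mean within 0.01, AL -0.54 ± 0.06 (SD, n = 9) and CR -0.54 ± 0.10 (n = 10). At 24 months the means were -0.64 ± 0.15 (n = 10) and -0.59 ± 0.16 (n = 8), with a fitted difference of 0.04 (SE 0.06), which was -0.02 without CR male replicate 2 and 0.11 without CR male replicate 1. The 6 months AL mice were thus the lowest of the 8 conditions of age and diet, and 16 months mice of both diets lay near the CR mice of 6 months.

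Wdfy2 showed the largest differences in z units of the 6 genes and stood first of the named probes over the 3 ages, and it was also the most variable. Its residual SD within groups was 0.54 z units, above that of 97.1% of all probes. Its mean score of -2.28 was above that of only 1.31% of all probes, so it lay near the bottom of the arrays. AL mice scored from -3.11 to -1.23 (median -2.32) at 6 months, from -2.73 to -1.26 (median -2.14) at 16 months and from -2.75 to 0.19 (median -2.38) at 24 months. CR mice scored from -3.21 to -1.80 (median -2.62), from -2.82 to -2.06 (median -2.50) and from -2.95 to -1.69 (median -2.33). The ranges overlapped widely at each age, and at 24 months the medians differed by less than 0.1 with CR the higher. CR minus AL was -0.37 (SE 0.24) at 6 months, -0.49 (SE 0.23) at 16 months, -0.39 (SE 0.25) at 24 months and -0.41 (SE 0.14) over the 3 ages. The value at 24 months rested on the score of 0.19 in AL male replicate 2, the array with 2 age entries: without it the difference was -0.13. The difference over the 3 ages was -0.33 without it and -0.37 without both near-identical arrays. By sex the difference was -0.78, -0.38 and -0.89 in males and 0.05, -0.60 and 0.11 in females at 6, 16 and 24 months. The male value at 24 months was -0.37 without AL male replicate 2, and the test between the sexes, given with the other tests, did not pass.

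Pigc was the only one of the 6 with a mean score above 0, and it leaned lower under CR. At 6 months AL mice scored from 0.76 to 1.24 (median 0.98) and CR mice from 0.60 to 1.17 (median 0.81). At 24 months AL mice scored from 0.79 to 1.19 (median 0.96) and CR mice from 0.58 to 1.10 (median 0.84). At each of these ages 9 of 10 AL mice were above the CR mean, and the ranges overlapped over most of their length. The difference was -0.14 (SE 0.08) at 6 months, -0.06 (SE 0.08) at 16 months, -0.16 (SE 0.08) at 24 months and -0.12 (SE 0.05) over the 3 ages. CR was lower in both sexes at each of the 3 ages, by 0.02 to 0.19 z units. At 16 months the AL mean was 0.95 ± 0.17 (SD, n = 9) and the CR mean 0.91 ± 0.16 (n = 10), and the difference was -0.02 without both near-identical arrays. Pigc also differed between the sets of array numbers, with a mean of 0.84 in arrays 1 to 45 and 1.09 in arrays 46 to 67, a gap larger than its diet difference. Counted with its sign, this gap was above that of 76.5% of all probes. With array set as a block the diet difference over the 3 ages was -0.11.

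Prmt3 leaned higher under CR at 16 and 24 months. AL mice of 24 months scored from -1.85 to -1.46 (median -1.57) and CR mice from -1.68 to -1.35 (median -1.43), and all 10 AL mice were below the CR mean. The females made up most of this, with AL scores of -1.60, -1.56, -1.62, -1.54 and -1.63 and CR scores of -1.41, -1.35, -1.43, -1.43 and -1.37, which did not overlap. The share of all probes that separate so was not counted here either. After subtraction of the mean deviation of the surrounding probes these females overlapped, with CR female replicate 3 at -1.58 and AL female replicate 5 at -1.48. At 16 months the males differed instead, by 0.23 z units against -0.02 in females. CR minus AL was 0.04 (SE 0.06) at 6 months, 0.11 (SE 0.06) at 16 months, 0.11 (SE 0.07) at 24 months and 0.09 (SE 0.04) over the 3 ages, at position 5 of the named probes. Like Pigc, Prmt3 differed between the sets of array numbers, with means of -1.539 in arrays 1 to 45 and -1.435 in arrays 46 to 67. This gap of 0.104 was larger than its diet difference over the 3 ages, 0.088. Counted with its sign, it was above the gap of 60.4% of all probes, so it is not particular to Prmt3. With array set as a block the diet difference over the 3 ages was 0.092.

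Slc6a8 leaned higher under CR at 24 months, where it held position 2 of the named probes, and lay within 0.01 of AL at the younger ages. AL mice of 24 months scored from -1.08 to -0.64 (median -0.88) and CR mice from -0.82 to -0.15 (median -0.74). All 8 CR mice were above the AL mean. The difference was 0.23 (SE 0.08) at 24 months, 0.00 (SE 0.08) at 6 months and -0.01 (SE 0.07) at 16 months. The CR males of 24 months scored -0.82, -0.15 and -0.78, so that 1 of 3 lay far from the others. Without this mouse (CR male replicate 2) the difference at 24 months fell from 0.23 to 0.12 and that over the 3 ages from 0.08 to 0.04. The CR females of 24 months, at -0.73, -0.75, -0.74, -0.58 and -0.71, were closer together than the AL females, at -0.64, -1.04, -1.08, -0.91 and -0.70.

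No pair of neighbours in the order of the 8 conditions of age and diet lay further apart than the larger of their SDs, for any of the 6 genes. Sorted means lie close to their neighbours by construction, so this does not describe conditions further apart in the order. Obox2 at 6 months, with AL at -0.75 ± 0.08 (SD, n = 10) and CR at -0.56 ± 0.06 (n = 9), differed by more than either SD. From the lowest to the highest condition mean the score spanned 0.26 z units for Pttg1, 0.18 for Pigc, 0.18 for Prmt3, 0.24 for Slc6a8, 0.51 for Wdfy2 and 0.22 for Obox2. The lowest mean was that of AL mice for Pttg1 and Obox2 (6 months) and for Prmt3 and Slc6a8 (24 months). It was that of CR mice for Pigc (24 months) and Wdfy2 (6 months). The highest mean belonged to the youngest AL mice for Pttg1 (-0.28 ± 0.09, SD, n = 5) and Obox2 (-0.52 ± 0.13, n = 5), both at 17-21 days.

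The diet differences changed when the surrounding probes were subtracted, and little when array cycle and set were fitted as blocks. With the blocks alone, the difference over the 3 ages went from 0.083 to 0.086 for Pttg1 and from -0.119 to -0.106 for Pigc. It went from 0.088 to 0.095 for Prmt3 and from 0.076 to 0.075 for Slc6a8. For Wdfy2 it went from -0.415 to -0.404 and for Obox2 from 0.071 to 0.076. Subtracting the mean deviation of the surrounding probes removed 55.9% of the within-set variance of Obox2, 49.4% of that of Pigc, 24.7% for Slc6a8, 18.4% for Pttg1, 6.64% for Wdfy2 and 4.86% for Prmt3. In a fit of these corrected scores with blocks for array set and cycle, the difference over the 3 ages became 0.04 for Pttg1, -0.08 for Pigc, 0.07 for Prmt3, 0.04 for Slc6a8, -0.38 for Wdfy2 and 0.05 for Obox2. Each kept its sign and each was nearer to 0. At 6 months Obox2 went from 0.18 to 0.14 and Pttg1 from 0.17 to 0.12, and at 24 months Slc6a8 went from 0.23 to 0.15. Pigc at 24 months went from -0.16 to -0.08 and Prmt3 at 24 months from 0.11 to 0.05, while Prmt3 at 16 months moved away from 0, from 0.11 to 0.15. The part of position on the filter in the diet differences was not tested. Prmt3, Slc6a8 and Pttg1 lie within 80 consecutive probes of each other in the order of the table.

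Within the sets of array numbers, the 3 ages together gave the same sign in both sets for all 6 genes. In arrays 1 to 45 and 46 to 67 the differences were 0.10 and 0.02 for Pttg1, -0.13 and -0.07 for Pigc, 0.10 and 0.07 for Prmt3, 0.08 and 0.05 for Slc6a8, -0.55 and -0.26 for Wdfy2, and 0.04 and 0.12 for Obox2. Since both sets were part of the values that chose the genes, this is no sign of stability. At single ages the second set held 1 or 2 arrays in a group, and there Pttg1 was -0.00 at 16 months and -0.03 at 24 months, Pigc 0.00 at 16 months and Prmt3 -0.02 at 6 months. Obox2 at 6 months was 0.18 in each set, and Wdfy2 at 24 months was -0.63 in the first set, which holds AL male replicate 2, and -0.06 in the second.

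**Figure D2:**
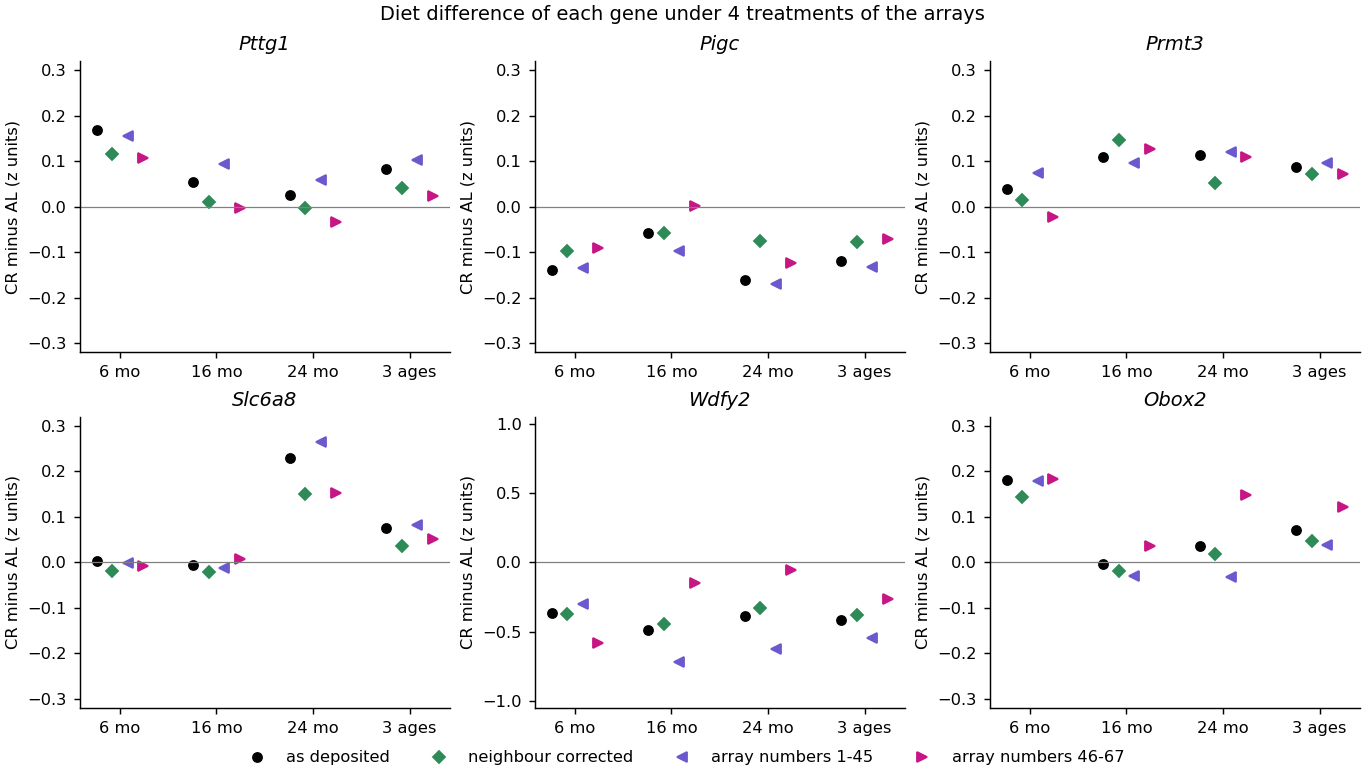
CR minus AL (vertical axis, z units) at 6, 16 and 24 months and over the 3 ages (horizontal axis) for each gene, from the deposited scores (black), after the neighbour correction with array blocks (green), and within array numbers 1-45 (violet) and 46-67 (magenta). The vertical scale of Wdfy2 differs from the others. The points over the 3 ages stay on 1 side of 0 for each gene and are nearer to 0 after the neighbour correction.

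Age and sex were compared to see whether the genes that leaned with diet also differed on axes that did not choose them. None of the 30 tests (6 genes in 5 comparisons) passed with limma after adjustment over all 8448 probes, and the smallest adjusted p was 0.296. An unadjusted p under 0.05 was reached in 3 of the 30, for Obox2 in both comparisons of adult ages and for Pttg1 at 33-44 minus 17-21 days. The residual SD of Pttg1, Obox2 and Prmt3 was above that of only 2.0%, 3.35% and 7.43% of all probes. For Slc6a8, Pigc and Wdfy2 these shares were 23.4%, 26.0% and 97.1%. A small SD lowers the p of diet, age and sex alike, so these p are not independent of the choice. Over all probes the adjusted test passed 0 probes (0%) for 16 minus 6 months, 24 minus 16 months, female minus male and the sex difference of the diet response, and 8 probes (0.0947%), all lower, for 33-44 minus 17-21 days. This last count ran from 0 to 441 when 1 of these 10 arrays was left out. The count for 24 minus 16 months was 128 with array set as a block and 488 with cycle and set as blocks, and none of the 6 genes was among them. The shares with an unadjusted p under 0.05 were 4.63% for 16 minus 6 months (391 probes), 10.1% for 24 minus 16 months (853), 14% for 33-44 minus 17-21 days (1186), 0.971% for the sexes (82) and 0.651% for the sex difference of the diet response (55).

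Obox2 gave the smallest unadjusted p of the 6 genes. It scored 0.12 z units (SE 0.04) higher at 16 than at 6 months over both diets, with an adjusted p of 0.998 with limma and position 33 of all 8448 probes by p. The AL means were -0.75 ± 0.08 (SD, n = 10) and -0.54 ± 0.06 (n = 9) and the CR means -0.56 ± 0.06 (n = 9) and -0.54 ± 0.10 (n = 10). That the age difference lies with AL restates the diet difference at 6 months that chose Obox2. From 16 to 24 months Obox2 differed by -0.08 (SE 0.04, adjusted p = 0.485 with limma), which became -0.03 after the neighbour correction with array blocks. The other 5 genes differed from 6 to 16 months by 0.02 to 0.16 z units and from 16 to 24 months by -0.09 to -0.04, and all these intervals held 0.

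Pttg1 was lower at 33-44 than at 17-21 days by -0.19 z units (SE 0.08), with an adjusted p of 0.296 with limma. The mice of 17-21 days scored -0.22 and -0.26 (males) and -0.21, -0.26 and -0.44 (females), and those of 33-44 days -0.46, -0.90 and -0.30 (males) and -0.41 and -0.33 (females). The ages overlapped, and without the male at -0.90 the difference was -0.10. For the remaining genes the difference between these ages ran from -0.08 for Obox2 and Prmt3 to 0.17 for Slc6a8, each with an interval that held 0.

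Females and males differed by -0.08 to 0.05 z units over the adult groups, with adjusted p of 1 for each gene. The diet difference in females minus that in males was 0.54 (SE 0.28) for Wdfy2, with a 95% interval from -0.02 to 1.10 and an adjusted p of 1 with limma. It was 0.37 without AL male replicate 2 of 24 months, 0.26 in array numbers 1 to 45 and 0.98 in 46 to 67. In the other 5 genes this difference lay between -0.06 and 0.07, and each interval held 0.

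**Figure D3:**
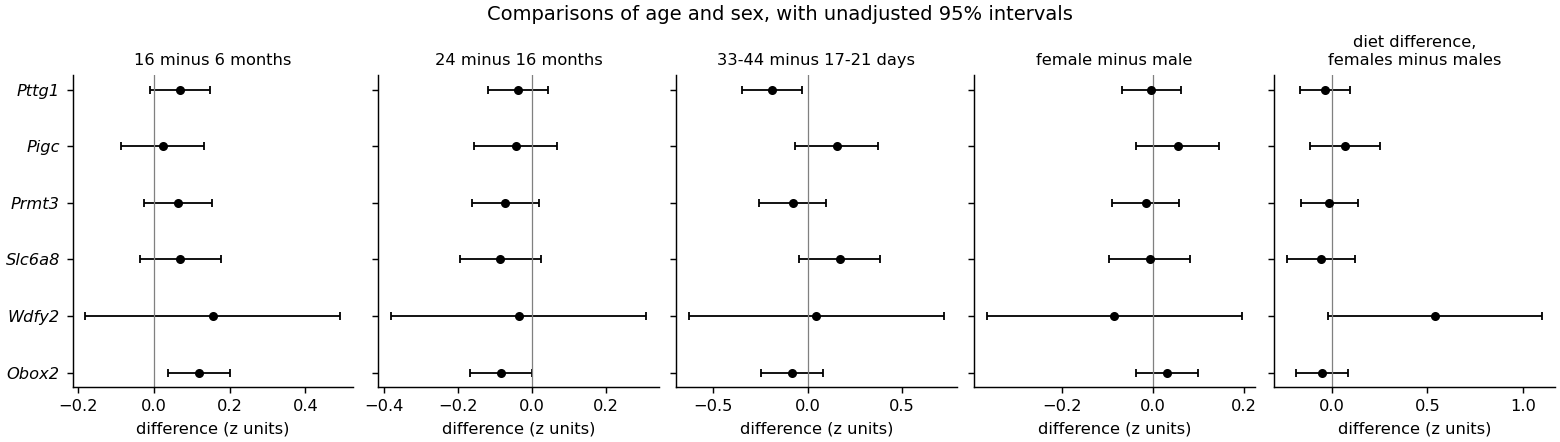
Difference in z units (horizontal axes, each panel with its own scale) for the 6 genes in the 5 comparisons that did not choose them, with unadjusted 95% intervals of the limma fit. Of the 30 intervals 27 hold 0, and the exceptions are Obox2 in both age comparisons of adults and Pttg1 at 33-44 minus 17-21 days.

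The named probes whose scores varied most like each gene were found by Pearson's r over the 67 arrays, after the mean of each set of array numbers was subtracted. These r share arrays and filter position and are a description. For Wdfy2 they were Tmem167 (r = 0.60) and Tspyl2 (0.55), which held 0.56 and 0.51 after the neighbour correction. Tmem167, which encodes a small membrane protein of the secretory pathway, lies 594 probes from Wdfy2 and had a diet difference of -0.36 over the 3 ages, while that of Tspyl2 was -0.05. On the inferred layout Tmem167 is at row 17 of block 11 and Wdfy2 at row 14 of block 10, both in column 21. Tspyl2 is in the same row and block as Wdfy2, 8 probes away. The correction uses close probes of the same block, so it need not remove what these places share. A probe picked for its r over these arrays shares part of the diet difference by that choice. For Obox2 they were Znrf2 (0.72, a ubiquitin ligase) and Mknk1 (0.71, a kinase of translation factor eIF4E), which fell to 0.36 and 0.46 after the correction. Znrf2 lies 22 probes from Obox2, which is 1 row on the inferred layout. For Pigc they were Wfdc1 (0.66) and Vps4a (0.65, an ATPase of endosomal sorting), which fell to 0.31 and 0.26.

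For Slc6a8 the most similar probes were Sertad1 (0.65) and Retreg2 (0.64), for Pttg1 Tmem115 (0.46) and Ppp1r21 (0.45), and for Prmt3 Ulk1 (0.47, the kinase that starts autophagy) and Cdc16 (0.46, a subunit of the anaphase-promoting complex). After the neighbour correction they were at 0.27 to 0.46. Cdc16 is at row 7 of block 5 and Prmt3 at row 8 of block 6, both in column 22, which the correction does not cover. Among the 6 genes themselves, r ran from -0.12 for Pigc with Prmt3 to 0.41 for Prmt3 with Obox2, and after the correction these pairs were at -0.27 and -0.00. Wdfy2 with Pigc, the pair that leaned lower, stood at 0.34 and at 0.16 after it. Pttg1 with Obox2, the pair that leaned higher at 6 months, stood at 0.30 and at 0.14.

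**Figure D4:**
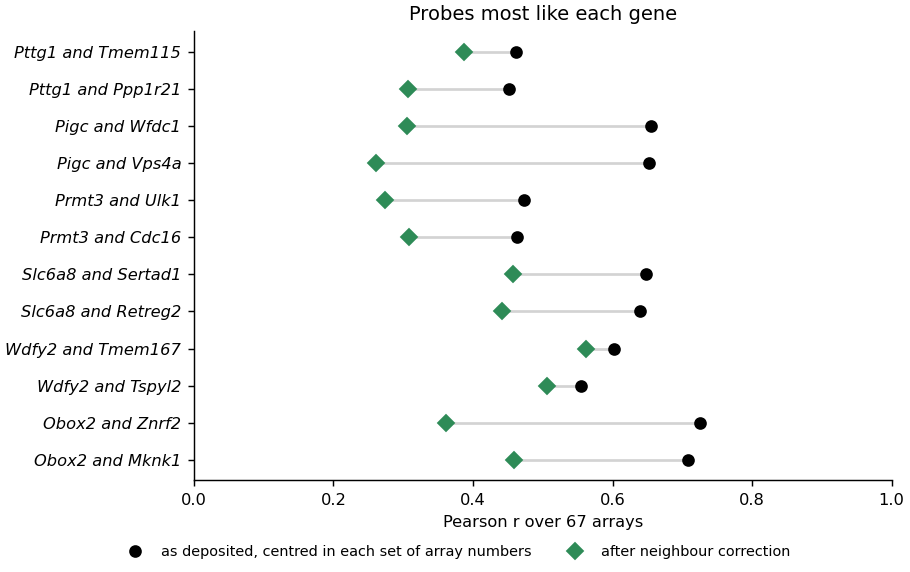
Pearson's r over 67 arrays (horizontal axis) between each gene and the 2 named probes most like it, from scores centred in each set of array numbers (black circles) and after the neighbour correction (green diamonds). Every pair is lower after the correction, and the pairs of Wdfy2 move the least.

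The scores by array number show which arrays carried the far values. The score of 0.19 for Wdfy2 was on array 27 and that of -0.15 for Slc6a8 on array 25, both in the first set, and Pigc scores were higher past the set boundary in both diets.

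**Figure D5:**
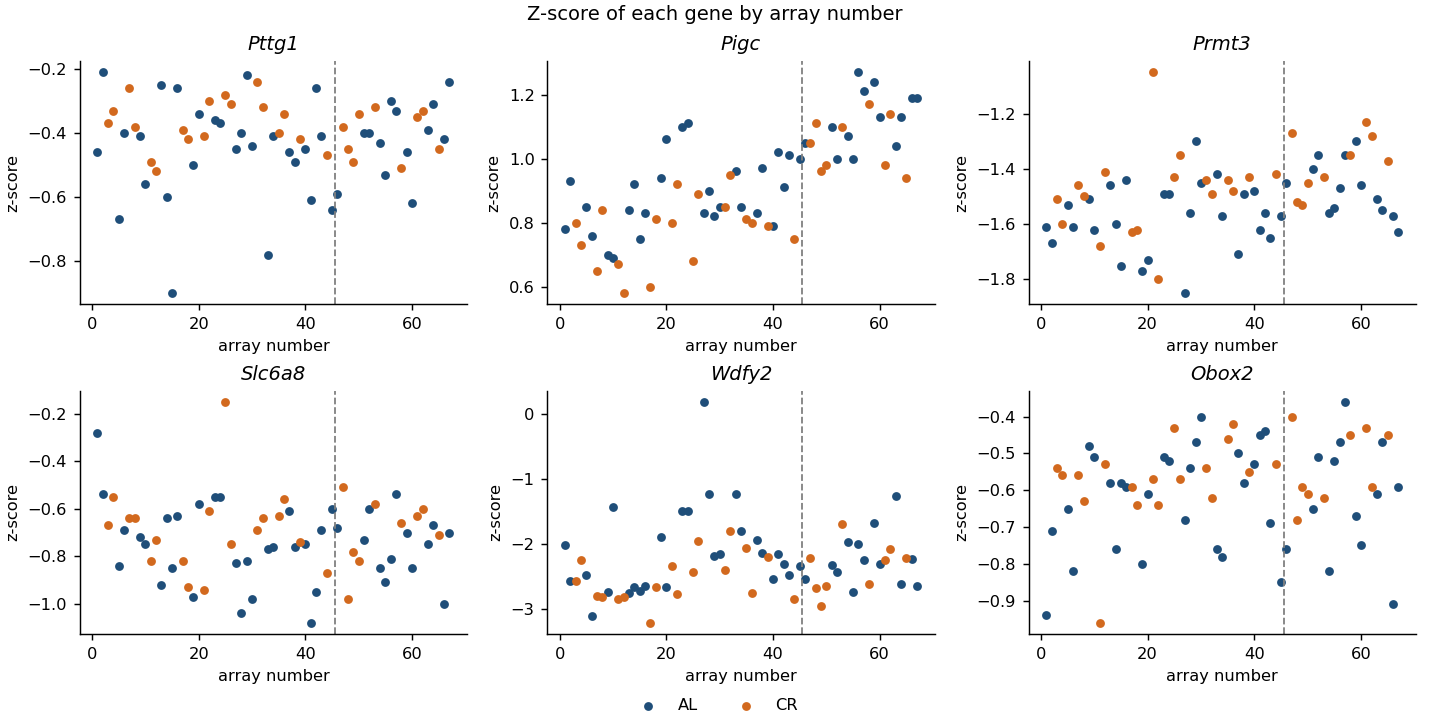
Z-score of each gene (vertical axis, z units) by the array number of the labels (horizontal axis), with AL in blue and CR in orange. The dashed line separates numbers 1-45 from 46-67, with Pigc means of 0.84 and 1.09 on its sides. The means of Prmt3 differ by 0.10 and those of Wdfy2, Slc6a8, Pttg1 and Obox2 by about 0.01.

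Since 0 of all 8448 probes (0%) passed the diet test, that no gene of the same processes passed is not particular to them. Over the 3 ages their median differences lay close to 0. Over the 3 ages 49.5% of all probes were higher under CR, with a median of -0.00. Among 28 measured genes of sister chromatid cohesion and anaphase other than Pttg1, 16 were higher and 11 lower, with a median of 0.01. Bub1b, a spindle checkpoint kinase, differed by 0.07 and Cdc16 by 0.06. Of 7 genes of GPI anchor synthesis other than Pigc, 2 were higher and 5 lower, with 0.07 for Pign and 0.03 for Pigq, both anchor enzymes. At single ages 7 of the 7 were higher at 6 months, where Pigc leaned lower, 1 was higher and 5 lower at 16 months, and 3 were higher and 4 lower at 24 months. Of all probes 50.8%, 49.1% and 48.2% were higher under CR at these ages. At 6 months none of the 7 had an unadjusted p under 0.05 with limma, as 0.462% of all probes had. Of 13 genes of FYVE proteins and early endosomes other than Wdfy2, 7 were higher and 6 lower, with 0.06 for the lipid phosphatase Mtmr6 and -0.06 for Rab5a, the GTPase of early endosomes.

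Of 3 other genes of creatine handling, Gatm, which makes the creatine precursor, differed by 0.03 and Arg2, an arginase, by -0.01. The SLC6 transporters Slc6a6 (taurine) and Slc6a13 (GABA) differed by 0.05 and 0.02. The 4 genes measured beside Prmt3 in the list of arginine methylation included no other arginine methyltransferase. Of these 4, 2 were higher and 2 lower, with 0.06 for Mat2b and 0.01 for Sms, which encodes spermine synthase. Of 8 oocyte genes other than Obox2, 2 were higher and 6 lower, with -0.06 for Dppa3 and 0.04 for Bmp15. Of 12 genes of the response to nutrients and glucocorticoids, 5 were higher and 7 lower, with 0.09 for the nutrient sensor kinase Mtor and -0.05 for the glucocorticoid target Fkbp5.

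The tissue could be checked against few defining markers. Of 18 listed neuron markers only Nefl, a neurofilament chain, had a named probe, and it differed by 0.02 between the diets over the 3 ages. At 6, 16 and 24 months it differed by -0.10, 0.14 and 0.02, sizes like those of most of the 6 genes, and 16 months was the age where its unadjusted p was under 0.05. Of the other cell types the sample could hold, 4 astrocyte, 2 oligodendrocyte, 6 blood, 8 choroid plexus and meninges and 1 striatum marker were measured. Their diet differences over the 3 ages ran from -0.05 (Clu) to 0.04 (Sparcl1) for astrocytes, from -0.03 (Car2) to -0.00 (Gpr37) for oligodendrocytes and from -0.03 (Hbb-y) to 0.03 (Hba-a2) for blood. They ran from -0.07 (Dcn) to 0.02 (Igf2) for choroid plexus and meninges, and Ppp1r1b of the striatum differed by -0.00. None passed in a diet comparison, where 0 of all 8448 probes passed. Hbb-y, a globin, passed at 33-44 minus 17-21 days (adjusted p = 0.0265 with limma), at -0.42 z units beside -0.19 for Pttg1. These ages were spread unevenly over the array sets, which this fit did not block. The count of probes that passed there was 70 with array set as a block and 0 after the neighbour correction with array blocks. The other blood markers ran both ways between these ages: Hba-a1 -0.41, Slc4a1 -0.34 and Alas2 -0.19, but Hba-a2 0.41 and Hba-x 0.16. The part of these cells in the results was not tested.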

How the data were processed

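RNA of mouse cerebral cortex was labelled with a phosphorus isotope (33P in the sample labels, 32P in the methods) and hybridized to 1 filter of a nylon set of cDNA probes. Per the labels and methods, the authors took the log of each spot intensity and deposited a z-score per array, that is a score with mean 0 and SD 1. Neither the log base nor the background treatment is stated. Means of the deposited scores lay between -0.0002 and 0.00009, and 1 score was missing, in no member. Probes were named where the platform annotation gave 1 symbol (4875 probes, against 224 with several and 3349 with none).

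limma 3.58.1 in R 4.3.3 fitted a mean for each of 16 groups of age, diet and sex over all 67 arrays, and 9 comparisons were taken from these means with the sexes weighted equally, two-sided, with Benjamini-Hochberg adjustment over 8448 probes at 0.05. The tested comparisons of age and sex correlated with the diet comparisons by at most 0.105 in the fit. This holds for the differences and not for the residual SD, which all comparisons share. The 2 near-identical arrays were kept apart in the fits. The neighbour correction subtracted, in each array, the mean deviation of the probes within 2 positions each way on a layout inferred from the probe order (16 blocks of 24 rows and 22 columns). The labels name separate mice as replicates, and replicate numbers follow the accession order and pair no samples.

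The members and gene lists were chosen with earlier results of these data known, as were the comparisons that chose the members. Named genes were every probe of the members. From each gene list they were the genes that passed in any comparison or, failing that, the 2 of smallest p for diet over the 3 ages. For each member they were also the 2 named probes of highest r. The fit and the correction were tested on simulated data. Alternatives were other scalings, blocks, filters and subsets of arrays. Sequences of the probe cDNAs were not used here. Figures were drawn with matplotlib 3.10.9.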

Additional observations from a re-analysis of the deposited data

Results flagged for a closer look

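In groups of 4 or 5 mice, 6 of 66 combinations of gene and group held a score far from the rest (Dixon's ratio of gap to range), where chance gives about 1 in 20. Wdfy2 was at 0.19 in 24 months AL male replicate 2, with the next mouse at -1.97. Prmt3 was at -1.85 in the same array, with the next at -1.57. Wdfy2 was at -2.08 in 16 months CR female replicate 5, with the next at -2.67. Slc6a8 was at -0.98 in 16 months CR female replicate 4 and at -0.58 in 24 months CR female replicate 4, with the next mice at -0.64 and -0.71. Pttg1 was at -0.25 in 24 months AL male replicate 1, with the next at -0.42. The 3 CR males of 24 months were too few for this rule. No gene had every male move one way with diet and every female the other way at an age.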

How the results depend on the processing

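No member passed in a comparison of age or sex under any alternative, with a smallest adjusted p of 0.173. Counts of probes that passed for 24 minus 16 months were 0 as deposited, 1 with probes of mean score above 0, 128 with array set as a block, 488 with cycle and set, 2 with the neighbour correction, 31 in arrays 1-45 alone and 22 with the compared groups alone. For 33-44 minus 17-21 days they were 8 as deposited, then 1, 70, 21, 0, 0 and 0 in the same order. In arrays 46-67 alone 2 passed for diet at 6 months, 2 at 24 months, 1 over the 3 ages, 2 for 16 minus 6 months, 1 for sex and 3 for sex by diet. The first steps of the study's selection admitted 29, 10, 41 and 30 for diet. Without 1 array the count ranged from 0 to 1 for 24 minus 16 months (1 without 16 months AL female replicate 4) and from 0 to 441 for 33-44 minus 17-21 days (441 without 33-44 days AL female replicate 1, and 0 without any of 6 of these 10 arrays). Groups left with 1 array took their spread from the others.

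Diet differences at single ages changed sign in some settings. Obox2 at 24 months was 0.036 as deposited, -0.0325 in arrays 1-45 and 0.1475 in arrays 46-67. With the neighbour correction Pttg1 at 24 months went from 0.026 to -0.0026 and Slc6a8 at 6 months from 0.004 to -0.0184. Differences of age, sex and sex by diet that changed sign were small. Wdfy2 at 33-44 minus 17-21 days was -0.00057 with quantile normalization and -0.0733 in arrays 1-45. Pigc at 16 minus 6 months was -0.0106 with the set block, -0.00629 with cycle and set and -0.0513 in arrays 46-67. The neighbour correction gave -0.0360 for Prmt3 at 16 minus 6 months, 0.0533 for Wdfy2 at 24 minus 16 months and 0.0497 for Prmt3 in sex by diet. Wdfy2 at 24 minus 16 months was 0.0259 without both near-identical arrays and 0.0608 in arrays 1-45. In sex by diet Prmt3 was 0.0833 in arrays 46-67 and Obox2 0.0264 in arrays 1-45, and Slc6a8 in sex was 0.0392 in arrays 46-67. Without 1 array at a time the ranges were -0.0348 to 0.0111 for Prmt3 in sex by diet, -0.0130 to 0.0085 for Pttg1 in sex, -0.097 to 0.0147 for Slc6a8 in sex by diet, -0.0265 to 0.0293 for Slc6a8 in sex, and -0.164 to 0.0199, -0.0158 to 0.167 and -0.129 to 0.00064 for Wdfy2 at 24 minus 16 months, at 33-44 minus 17-21 days and in sex. The causes were not tested. Replicate numbers come from the accession order and were fitted as no block, while array cycle and set were.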
